A study of Mus musculus with 8 samples.

Results

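The adipogenic transcription factors Pparg, Cebpa, Cebpb, Cebpd, Klf15, Klf5, Ebf1, Ebf2, Srebf1 and Zfp423 were followed in mouse subcutaneous preadipocytes after Cre-mediated deletion of Dicer. They are 10 of the 18194 genes that the platform annotation names alone on at least 1 probe set, and every probe set assigned to exactly 1 of them was taken, 20 of the 45101 on the array. Of these, 18 passed the filter on low signal and were among the 27022 probe sets tested, and all 10 genes kept at least 1 tested probe set. The 2 that missed it were a Klf5 and an Ebf1 probe set.

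In the 4 Dicer knockout samples the cells received an adenovirus carrying both Cre recombinase and GFP under the CMV promoter, and in the 4 control samples they received the matching GFP virus. Preadipocytes are the fibroblast-like precursors of fat cells. All 8 samples were Dicer lox/lox on a C57BL/6 background, came from newborns at day 2, were infected at 750 MOI with 4 µg/mL polybrene, and gave total RNA 4 days later, 1 Affymetrix array per sample. The labels name growth medium with serum and no cocktail that induces fat cell formation. No array is of the Cre virus in cells without floxed Dicer, so effects of Cre and of Dicer loss cannot be told apart in any difference below. The labels number the samples of each group 1 to 4 as biological replicates without naming animals or cultures, so p-values measure only the spread between these samples, which may be technical.

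Fat cell formation runs through a cascade of these factors. Commitment factors such as Zfp423 and the early B cell factors Ebf1 and Ebf2 set a mesenchymal cell on the adipocyte path. Hormonal induction then raises Cebpb and Cebpd, which with Klf5 switch on the nuclear receptor gene Pparg and Cebpa, and these last factors sustain each other and the genes of the mature fat cell. Klf15 acts late and favours Pparg and glucose uptake, and Srebf1 encodes SREBP-1, which drives fatty acid synthesis. Dicer cuts microRNA precursors into the mature microRNAs that bind messenger RNAs through a short 5′ seed and lower their level or translation.

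Several microRNAs are known repressors of these factors, and their mature sequences are shown because their production depends on Dicer. Both miR-27 and both miR-130 forms act on Pparg, miR-155 on Cebpb and miR-448 on Klf5. The arrays measured none of these mature microRNAs. Sequences are from RefSeq (GRCm38.p6), with the seed, bases 2 to 8, in capitals.
mmu-miR-27a-3p: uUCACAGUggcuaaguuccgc
mmu-miR-27b-3p: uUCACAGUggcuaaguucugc
mmu-miR-130a-3p: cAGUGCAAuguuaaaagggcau
mmu-miR-130b-3p: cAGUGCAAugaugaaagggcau
mmu-miR-155-5p: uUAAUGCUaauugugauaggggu
mmu-miR-448-3p: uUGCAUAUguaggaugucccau
The 2 miR-27 forms share the seed UCACAGU, and the 2 miR-130 forms share the seed AGUGCAA.

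The targeted transcript, Dicer1, was not called in either fit. Its brighter probe set (1460571_at) read 1158.3, 1190.4, 1403.8 and 1110.1 in knockouts 1 to 4 and 1152.7, 1140.7, 2113.7 and 1190.3 in controls 1 to 4. The dimmer one (1427941_at) read 753.8, 563.8, 487.8 and 502.2 in knockouts and 620.9, 889, 1045.1 and 391 in controls, in the same order. The sources used here do not say where the Dicer1 probe sets lie relative to the floxed segment, so these values do not check the deletion. A call is an adjusted limma p under 0.05 (Benjamini-Hochberg, 27022 tests). In the unpaired fit 1 probe set was called, or 0.0037%, and with the replicate number as a block (the paired fit) 13 were called, or 0.0481%. Same-numbered knockout and control arrays deviated together, so paired values are given where they bear on a member. In both groups replicates 1 and 3 differed from replicates 2 and 4, as in the 18S ribosomal RNA 5′ probe set, at 5905.9 to 14007.2 in the odd-numbered arrays and 30583.9 to 43029.9 in the even-numbered arrays.

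None of the 18 tested probe sets of the adipogenic factors was called, in the unpaired or the paired fit. Their smallest limma adjusted p was 0.999 without pairing and 0.288 with it, adjusted over all tested probe sets. The log2 difference, knockout minus control on the log2(signal + 73.1) scale, was below 0 for 12 and above 0 for 6 probe sets, with a median of -0.06, whereas over all tested probe sets 48.7% were below 0 and the median was 0.01. An unadjusted p under 0.05 was reached by 1 member probe set in the unpaired fit (background 3.77%) and by 3 in the paired fit (background 9.14%). The 2 groups did not overlap for 2 of the 18, Klf15 lower and an Ebf2 probe set higher, against 2.46% of all tested probe sets. In the unpaired fit the 95% interval of the difference spanned 0 for 17 of 18, and it reached a median of 0.40 log2 units to either side of the estimate.

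**Figure D1:**
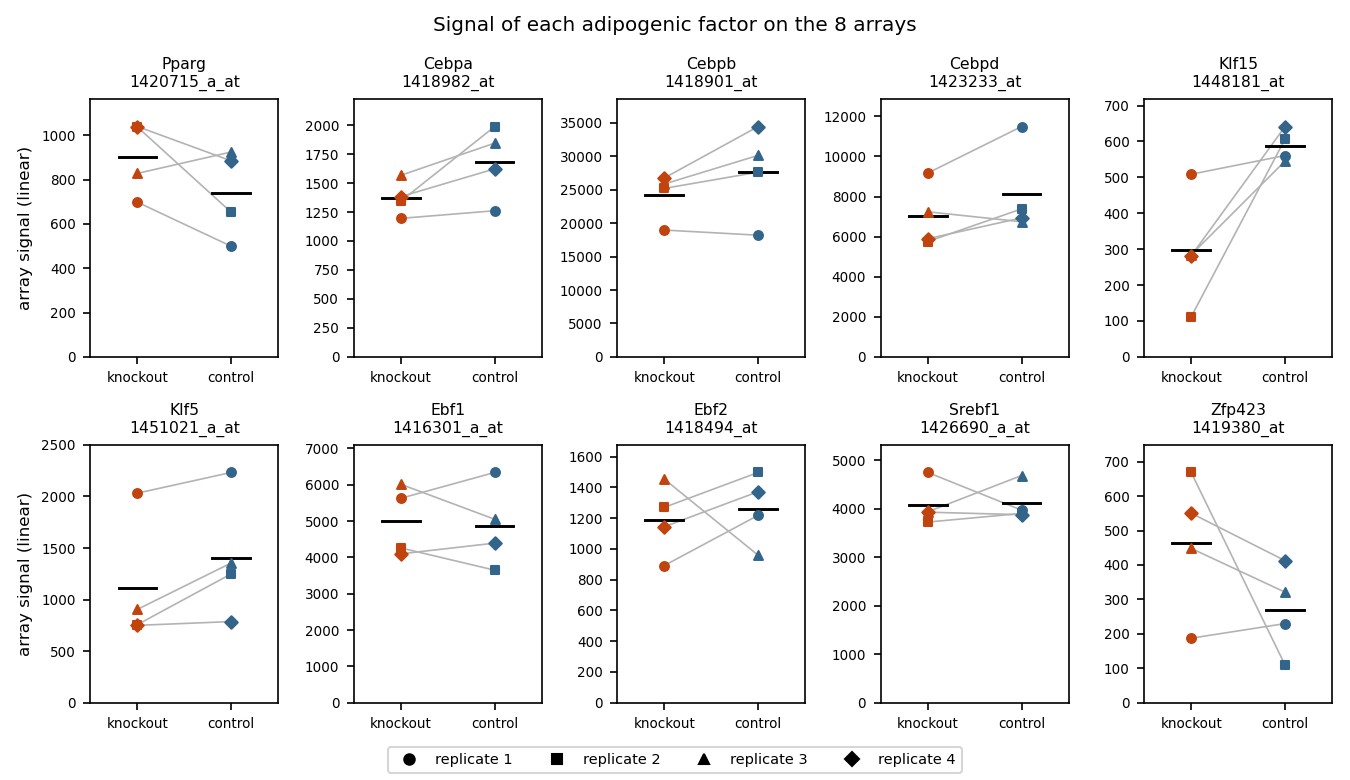
Array signal (linear, from 0) of the brightest probe set of each factor, with knockout arrays on the left and control arrays on the right. Grey lines join same-numbered replicates and black bars are group means. Klf15 is the only panel in which all 4 knockout points (111.6 to 508.7) lie below all 4 control points (545.6 to 641.7).

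Klf15, a Krüppel-like zinc finger factor of late adipogenesis, showed the difference of largest size among the tested member probe sets. Its probe set (1448181_at) read 508.7, 111.6, 284.4 and 281.6 in knockouts 1 to 4, and 560.9, 606.6, 545.6 and 641.7 in controls 1 to 4. The controls lay close together, every knockout array was below every control array, and knockout 2 was the lowest. The log2 difference was -0.95 (SE 0.30), with a limma adjusted p of 0.999. An exact permutation of the arrays, two-sided, gave p = 0.0286, the smallest that 4 against 4 arrays allow. Benjamini-Hochberg adjustment of this permutation p over the 20 member probe sets gave 0.286. The paired fit did not call Klf15 either (SE 0.28, adjusted p 0.288 by limma). The 4 replicate pairs gave -0.12, -1.88, -0.79 and -1.01. Without knockout 2 the difference was -0.66, and it was -0.46 in pairs 1 and 3 alone and -1.45 in pairs 2 and 4 alone. At signals this low the added 73.1 matters: the difference was -1.17 with an added value of 1.

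The promoter of Klf15 is shown since that gene stood furthest apart. RefSeq (GRCm38.p6) gives 1 start window for it, 250 bases before to 50 after the start, at chr6:90462326-90462625 on the plus strand. Capitals mark the E-box CACGTG, a palindrome bound by many basic helix-loop-helix factors, which occurs 3 times here and in 7.15% of 32851 such windows of the genome. A match is a description of the letters and not evidence of binding.
Klf15: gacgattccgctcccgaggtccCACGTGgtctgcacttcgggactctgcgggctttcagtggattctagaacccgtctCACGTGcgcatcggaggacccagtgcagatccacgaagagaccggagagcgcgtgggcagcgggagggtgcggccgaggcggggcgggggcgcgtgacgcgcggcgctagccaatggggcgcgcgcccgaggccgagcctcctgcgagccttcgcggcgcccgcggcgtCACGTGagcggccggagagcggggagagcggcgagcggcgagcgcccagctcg

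Klf5, which acts upstream of Pparg early in adipogenesis, was measured by probe sets that disagreed. The brightest (1451021_a_at) read 2032.0, 757.2, 904.8 and 750.0 in knockouts 1 to 4 and 2233.0, 1249.3, 1355.2 and 787.0 in controls 1 to 4. Replicate 1 was high in both groups. The knockout array was the lower one in 4 of 4 pairs, as for 8.26% of all tested probe sets, but the groups overlapped widely. On the log2 scale knockouts were lower by a difference of -0.35 (SE 0.33, adjusted p = 0.999 by limma), and with the pairs as a block the SE was 0.15 (adjusted p = 0.5 by limma). Another tested probe set (1451739_at) gave a difference in the opposite direction, 0.23 (SE 0.29). The remaining one (1430255_at) was too dim to be tested, at 12.5 to 165.0 over the 8 arrays.

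Pparg, the nuclear receptor that directs fat cell formation, had 1 probe set (1420715_a_at), which does not tell its isoforms apart in these files. It read 698.2, 1038.0, 828.2 and 1039.8 in knockouts 1 to 4, and 499.1, 652.5, 924.9 and 884.8 in controls 1 to 4. The knockout array was higher in 3 of 4 pairs, pair 3 being the exception, and the groups overlapped. The estimated log2 difference came to 0.28 (SE 0.21), its 95% interval ran from -0.19 to 0.74, and limma's adjusted p was 0.999. Without control 1, the lowest array, the difference was 0.12. The paired fit gave an SE of 0.17 and a limma adjusted p of 0.677.

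Cebpa, the partner factor that sustains Pparg, leaned the other way. Its probe set (1418982_at) read 1195.2, 1343.9, 1566.9 and 1383.0 in knockouts 1 to 4, and 1261.1, 1988.1, 1844.9 and 1622.8 in controls 1 to 4. Each knockout array lay below its same-numbered control, but control 1 fell among the knockouts. Its log2 difference of -0.26 (SE 0.16) had a 95% interval of -0.62 to 0.09 and an adjusted p of 0.999 by limma. With pairing the SE was 0.13 (adjusted p = 0.566 by limma). Lower values in 4 of 4 pairs were found for 8.26% of all tested probe sets. The genes whose values followed Pparg most closely over the 8 arrays were Cacna1b, Bcas1 and Klc1 (Pearson r of 0.983, 0.978 and 0.976), and those following Cebpa were Mpdu1, Snhg16 and Hinfp (0.976, 0.969 and 0.966). These are the highest among the 13256 genes tested, over 8 arrays that share groups and replicate numbers, so they are a description only.

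The most downstream of 3 annotated Pparg start windows is shown since C/EBP factors are known to act there (RefSeq, GRCm38.p6, chr6:115421816-115422115, plus strand). Capitals mark the C/EBP motif TTGCNNAA on either strand, where N is any base, found 2 times here and in 10.8% of all windows.
Pparg: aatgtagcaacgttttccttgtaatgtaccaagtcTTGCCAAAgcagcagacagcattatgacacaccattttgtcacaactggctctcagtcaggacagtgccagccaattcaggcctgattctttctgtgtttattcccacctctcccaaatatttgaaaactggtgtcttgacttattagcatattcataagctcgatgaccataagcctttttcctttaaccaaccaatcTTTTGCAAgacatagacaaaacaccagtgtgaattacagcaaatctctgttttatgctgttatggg
In all, 2 of the 13 windows of the member genes held this motif.

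Cebpb, induced first by hormonal signals through CREB, was measured by 2 probe sets that moved alike from array to array. The brighter (1418901_at) read 18974.0, 25206.8, 25860.6 and 26759.5 in knockouts 1 to 4, and 18201.9, 27636.0, 30150.5 and 34465.6 in controls 1 to 4. Replicate 1 was the lowest array of both groups, and in the other 3 pairs the knockout array was the lower one. The difference amounted to -0.16 on the log2 scale (SE 0.18, adjusted p = 0.999 by limma), with a paired SE of 0.08 (adjusted p = 0.588 by limma). It ranged from -0.35 without control 1 to -0.05 without control 4. The dimmer probe set (1427844_a_at) gave -0.14 (SE 0.17).

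Cebpd, the other early C/EBP factor, was high in the replicate in which Cebpb was low. Its brighter probe set (1423233_at) read 9171.0, 5753.7, 7239.8 and 5894.9 in knockouts 1 to 4, and 11494.2, 7385.0, 6739.6 and 6933.7 in controls 1 to 4. Replicate 1 was the highest array of both groups. Knockouts were lower in 3 of 4 pairs, by a mean log2 difference of -0.20 (SE 0.19, adjusted p = 0.999 by limma), and the paired fit did not call it (SE 0.09, adjusted p = 0.546 by limma). The dimmer one (1456605_at) gave -0.07 (SE 0.19), with knockout 1 at 1664.9 above every control array.

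The Cebpb promoter window is shown for the letters of the CREB core motif TGACG, marked in capitals on either strand (RefSeq, GRCm38.p6, chr2:167688665-167688964, plus strand). It occurs 3 times here and in 20.8% of all windows.
Cebpb: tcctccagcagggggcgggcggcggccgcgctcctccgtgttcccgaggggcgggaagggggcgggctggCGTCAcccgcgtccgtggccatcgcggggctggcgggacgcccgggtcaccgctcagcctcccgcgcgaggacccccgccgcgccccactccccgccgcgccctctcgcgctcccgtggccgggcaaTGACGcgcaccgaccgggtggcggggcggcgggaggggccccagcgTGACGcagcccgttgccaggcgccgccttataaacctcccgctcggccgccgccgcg

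Zfp423, a zinc finger factor that marks committed preadipocytes, had 1 dim probe set (1419380_at). It read 187.4, 668.8, 448.2 and 550.3 in knockouts 1 to 4, and 229.8, 109.2, 321.0 and 412.6 in controls 1 to 4. The lowest array of all was control 2, whose partner knockout 2 was the highest, and the groups overlapped. The log2 difference, 0.64 (SE 0.38), had a 95% interval from -0.17 to 1.46, with 0.999 as limma's adjusted p. It came to 0.37 without control 2 and to 0.18 in the paired fit without pair 2. Pairs 1 and 3 alone gave 0.09, and pairs 2 and 4 alone 1.19.

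Ebf1, an early B cell factor that is also required in fat progenitors, differed little between the groups on all 4 tested probe sets. The brightest (1416301_a_at) read 5625.8, 4260.4, 6011.7 and 4097.6 in knockouts 1 to 4, and 6337.6, 3647.6, 5048.5 and 4391.7 in controls 1 to 4. Odd-numbered arrays of both groups were above even-numbered ones. The 4 log2 differences lay between -0.08 and 0.05 (SE 0.13 to 0.18). The 95% interval ran from -0.34 to 0.44 for the brightest probe set and from -0.39 to 0.23 for 1439789_at. It was narrowest for 1416302_at, from -0.33 to 0.22. Of the 4, 3 were designed on the same transcript accession and are not independent. The untested Ebf1 probe set (1457441_at) read 21.4 to 318.4 in knockouts and 105.5 to 327.0 in controls.

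Ebf2, a factor of brown and beige fat precursors, gave different pictures on its 3 probe sets, all designed on a single transcript accession. The brightest (1418494_at) read 891.6, 1269.8, 1453.5 and 1144.0 in knockouts 1 to 4 and 1218.1, 1496.9, 958.6 and 1371.6 in controls 1 to 4. Its log2 difference was -0.08 (SE 0.18), and the groups overlapped. The next (1449102_at) read 862.4, 823.1, 963.3 and 902.6 in knockouts 1 to 4 and 745.3, 589.4, 810.6 and 716.5 in controls 1 to 4. Here the lowest knockout array was just above the highest control array, with a log2 difference of 0.29 (SE 0.16) and a limma adjusted p of 0.999. The exact permutation p, two-sided, was 0.0286, or 0.286 after Benjamini-Hochberg adjustment over the 20 member probe sets. Higher values in 4 of 4 pairs were found for 8.62% of all tested probe sets. The dimmest (1449101_at) scattered between 68.6 and 513.7, with a difference of 0.06 (SE 0.46). The Ebf2 probe sets thus gave no common direction.

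Srebf1, the source of the lipogenic factor SREBP-1, had 1 probe set (1426690_a_at) with nearly equal group means. It read 4751.4, 3727.3, 3938.2 and 3931.3 in knockouts 1 to 4, and 3973.6, 3905.7, 4687.8 and 3879.6 in controls 1 to 4. A single array stood high in each group, knockout 1 and control 3. The log2 difference of -0.01 (SE 0.12) had a 95% interval of -0.27 to 0.25.

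**Figure D2:**
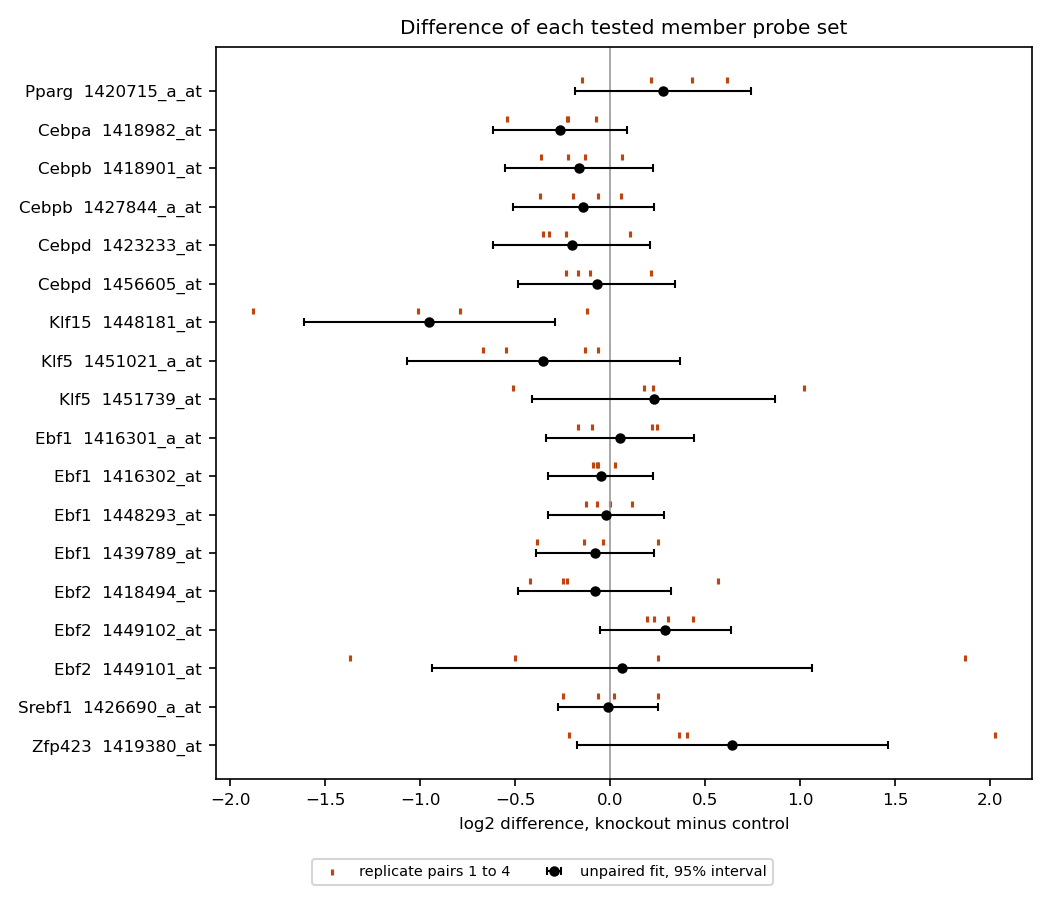
Log2 difference, knockout minus control, of the 18 tested probe sets of the adipogenic factors. Dots and bars are the unpaired estimate with its 95% interval, and red ticks are the 4 replicate pairs. The interval of Klf15 (-1.61 to -0.29) is the only one that does not include 0.

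The sum of squares of each member probe set's 8 log2 values was split between group, replicate number and the remainder. Of the 7 degrees of freedom group holds 1 and replicate number 3, so with no difference of either kind their shares would average 14.3% and 42.9%. The median of such a share can lie below its average, so the medians here are compared only with those over all tested probe sets. Replicate number took a median of 56.9% over the 18 member probe sets and group 7.36%, beside 56.4% and 6.80% over all tested probe sets, so these medians resemble the array as a whole. For 1416302_at of Ebf1 and 1418901_at of Cebpb, replicate number took 92.9% and 85.1%. Only Klf15 and the Ebf2 probe set 1449102_at had more of their spread between the groups than between replicate numbers, with 56.2% and 59.2% between the groups. For Klf5 the highest replicate mean of 1451021_a_at was 2.77 times the lowest. The paired SE was below the unpaired SE for all 18 probe sets, as for 86.5% of all tested probe sets.

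**Figure D3:**
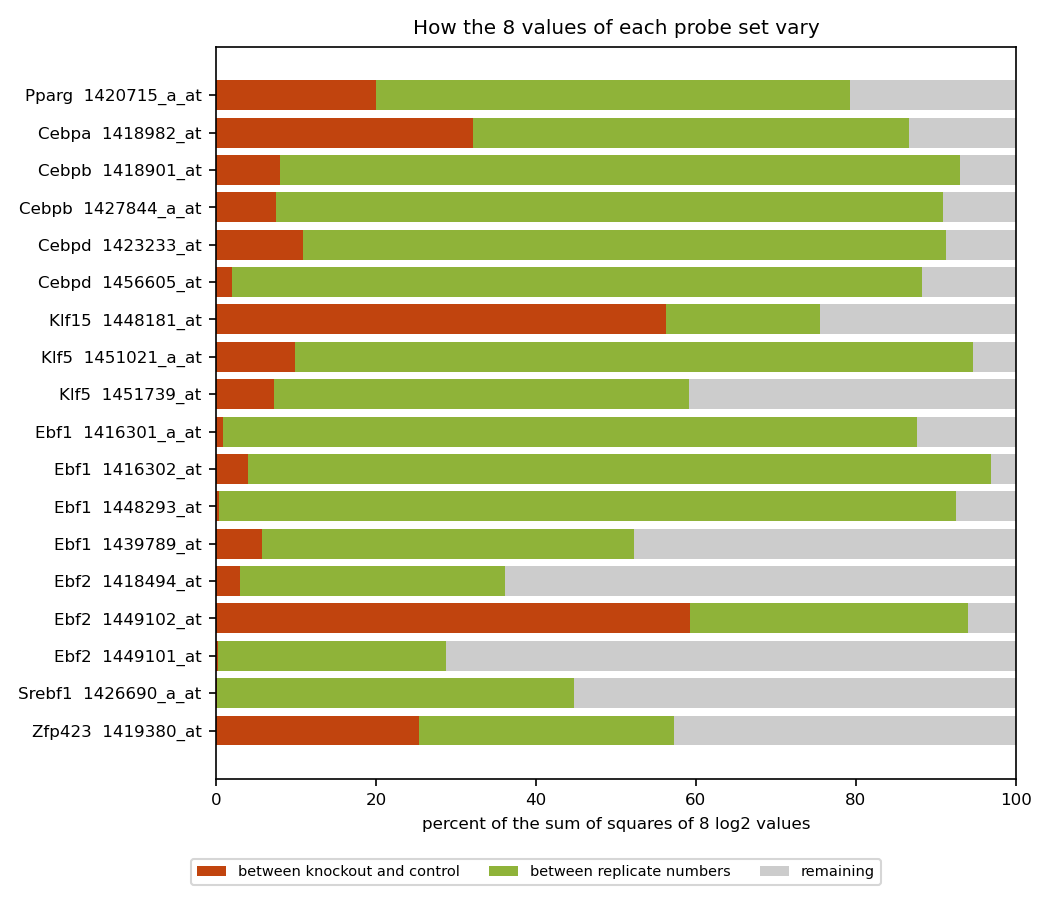
Share (percent) of the sum of squares of the 8 log2 values of each tested member probe set that lies between knockout and control, between replicate numbers 1 to 4, and in the remainder. The part between replicate numbers is the longest for Ebf1 1416302_at (92.9%), and the part between the groups exceeds it for Klf15 (56.2%) and Ebf2 1449102_at (59.2%).

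The genes that these factors control were described next, each by its brightest tested probe set. Of 18 tested targets of PPARG and CEBPA, 0 were called in either fit, 7 were above 0 and the median log2 difference was -0.02, beside -0.002 over all 13256 genes tested, of which 6571 were above 0. At an unadjusted p under 0.05 these targets numbered 0 in the unpaired fit (3.93% of all genes tested) and 1 in the paired fit (10.3%). Fabp4, the fatty acid binding protein of fat cells, read 1877.4, 5961.4, 5952.0 and 6206.2 in knockouts 1 to 4 and 2079.7, 3941.2, 3057.2 and 3493.4 in controls 1 to 4. Knockouts 2 to 4 stood above every control array and pair 1 was low in both groups, and the log2 difference was 0.55 (SE 0.34, limma adjusted p = 0.999). Paired, its SE was 0.15 and the limma adjusted p 0.251. Without pair 1 the paired fit called it (0.78, limma adjusted p = 0.0204), but not with any other pair left out. Lpl, the lipoprotein lipase, and Mgst1, a membrane glutathione transferase, differed by 0.06 (SE 0.38) and -0.08 (SE 0.17). Lipe, the hormone-sensitive lipase, and Car3, a carbonic anhydrase abundant in fat, differed by -0.27 (SE 0.20) and -0.60 (SE 0.43).

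Of 21 tested SREBP targets 4 were above 0, with a median of -0.08, and 0 were called in either fit. At an unadjusted p under 0.05 there were 0 unpaired and 6 paired, all 6 of them lower in knockouts, beside 3.93% and 10.3% of all genes tested. Fasn, the fatty acid synthase, read 8183.6, 4897.2, 6491.3 and 4539.7 in knockouts 1 to 4 and 10347.7, 6207.9, 9437.0 and 6009.8 in controls 1 to 4. It was lower in 4 of 4 pairs, as were 8.26% of all tested probe sets, though the groups overlapped. The log2 difference was -0.40 (SE 0.22, limma adjusted p = 0.999). Paired, its SE was 0.08 and the limma adjusted p 0.124. Acaca, which makes malonyl-CoA for Fasn, and the fatty acid desaturases Fads1 and Scd2 differed by -0.27 (SE 0.17), -0.19 (SE 0.10) and -0.10 (SE 0.16). Fasn, Acaca and Fads1 were among the 6, whereas Scd2 was not. The cholesterol synthesis genes Sqle and Fdps were also among the 6, at -0.20 (SE 0.14) and -0.19 (SE 0.13). Hmgcs1, of the same pathway, differed by -0.06 (SE 0.16). Among 15 tested genes that cleave or partner SREBP, 0 were called, 1 reached an unadjusted p under 0.05 in each fit, and the median was 0.00. Fbxw7, a ubiquitin ligase subunit that marks SREBP for degradation, differed by 0.33 (SE 0.14), and Insig1, which holds SREBP in the endoplasmic reticulum, by -0.05 (SE 0.18).

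Other regulators of adipogenesis gave 2 calls when each gene was taken by its brightest probe set, both in the paired fit. Neither of these genes was called there when pair 2, 3 or 4 was left out. Of 40 tested factors that promote it, 1 was called higher there (background 0.0604% of genes), with a list median of -0.04. An unadjusted p under 0.05 was reached by 3 of them unpaired and 7 paired, beside 3.93% and 10.3% of all genes tested. That gene was Hmga2, a chromatin protein, whose brightest probe set read 9994.7, 13625.8, 15125.4 and 12189.3 in knockouts 1 to 4 and 7128.7, 4628.6, 5969.4 and 6652.7 in controls 1 to 4. The log2 difference was 1.06, and the paired fit gave an SE of 0.14 and an adjusted p of 0.0336 by limma. A dimmer Hmga2 probe set (1450781_at) was the single call of the unpaired fit over the whole array (log2 difference 1.37, SE 0.16, limma adjusted p = 0.0335). Of 44 tested factors that restrain adipogenesis, 1 was called lower in the paired fit (background 0.0151% of genes), with a list median of -0.04, and 1 unpaired and 8 paired reached that unadjusted p. That gene was Dlk1, the preadipocyte factor that holds back differentiation, at 60140.3, 25167.6, 24502.7 and 15603.5 in knockouts 1 to 4 and 72944.1, 44809.0, 50687.1 and 26166.8 in controls 1 to 4. Its log2 difference was -0.72, and the paired fit gave an SE of 0.11 and an adjusted p of 0.0436 by limma. Id3, an inhibitor of basic helix-loop-helix factors, was at -0.61 (SE 0.18, paired adjusted p = 0.0565 by limma). The paired fit called Id3 (-0.69) without pair 1, but not with any other pair left out. Ppargc1a, the coactivator of mitochondrial genes, was at -0.76 (SE 0.29) and Egr2, an early inducer of Cebpb, at -0.43 (SE 0.15). Plac8, which acts upstream of Cebpb in brown fat, was at 0.53 (SE 0.29), and Trib2, which restrains C/EBP proteins, at 0.38 (SE 0.18). Ctnnb1, the Wnt effector beta-catenin, was at -0.15 (SE 0.08).

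Relatives of the members were not called either. Of 13 tested Krüppel-like genes outside the member list 0 were called, 0 unpaired and 1 paired reached an unadjusted p under 0.05, and the median was 0.02. Klf4, an early inducer of Cebpb, was at 0.33 (SE 0.27, paired SE 0.08). It was higher in 4 of 4 pairs, as were 8.62% of all tested probe sets. The dim Klf17 (197.1 to 607.6) was at 0.45 (SE 0.28), and the dim Klf14 (165.4 to 492) was at -0.41 (SE 0.32). Klf3 was at 0.02 (SE 0.10). Of 11 tested C/EBP relatives and zipper partners 0 were called, 0 unpaired and 2 paired reached that unadjusted p, and the median was -0.11, with Batf3 at -0.71 (SE 0.36). Of 4 tested relatives of Ebf and Zfp423 0 were called, 0 reached it in either fit, and the median was -0.08, with Zfp521, a Zfp423 homologue that restrains adipogenesis, at -0.04 (SE 0.10) and Ebf3 at -0.12 (SE 0.27).

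**Figure D4:**
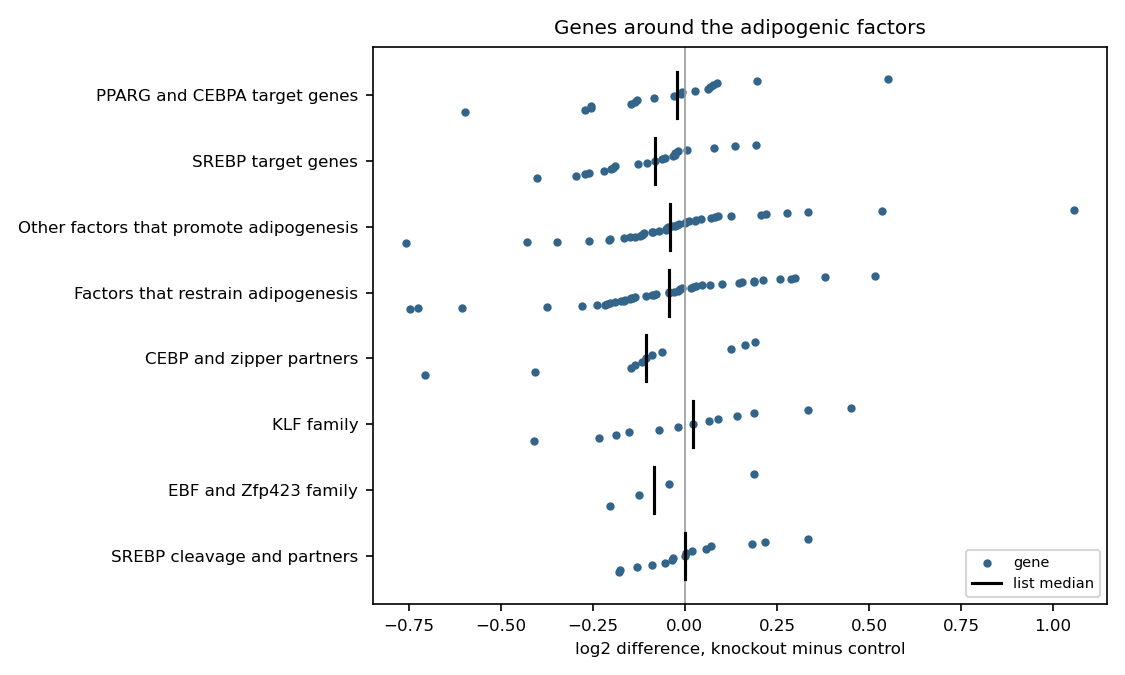
Log2 difference, knockout minus control, of each tested gene (dots) in 8 lists around the adipogenic factors, with the list median (black bar). Medians lie between -0.11 and 0.02, and Hmga2 is the point at 1.06.

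Preadipocyte and stromal markers were bright in both groups, and most mature adipocyte markers were dim. Of 20 preadipocyte and stromal markers 16 were tested and 7 were above 0, with a summed signal of 496062.5 to 595026.9 in knockouts and 508772.9 to 597270.6 in controls; Dlk1 was the 1 called, lower in the paired fit. At an unadjusted p under 0.05 these markers numbered 0 without pairing and 7 with it, 3 higher and 4 lower, beside 3.93% and 10.3% of all genes tested. Of 8 mature adipocyte markers on the array 3 were tested, with a summed signal of 3732 to 7984.3 in knockouts and 3411 to 6175.7 in controls. The other 5, Adipoq, Lep, Cidec, Aqp7 and Pck1, missed the filter, and Adipoq, the fat cell hormone adiponectin, read 42.8 to 126.7 in knockouts and 31.3 to 98.6 in controls. Slc2a4, the insulin-responsive glucose transporter, and Retn, the hormone resistin, were at -0.01 (SE 0.18) and -0.26 (SE 0.24). Marker lists of macrophages and leukocytes, endothelium, pericytes and smooth muscle, skeletal muscle, epithelium and Schwann cells had 8, 6, 6, 4, 4 and 6 tested genes and 0 called in either fit, with 0, 0, 1, 1, 2 and 0 at an unadjusted p under 0.05 in the unpaired fit (3.93% of all genes tested) and 1, 0, 2, 1, 2 and 1 in the paired fit (10.3%). Their median log2 differences were 0.07, 0.07, 0.10, 0.54, 0.19 and -0.14. Behind the 0.54 of skeletal muscle were Acta1 at 0.53 (SE 0.19), Des at 0.03 (SE 0.23) and the dim Myod1 and Ckm. Over the 8 arrays Myod1 read 143 to 493.8 and Ckm 101.1 to 732.3. Their differences were 0.55 (SE 0.32) and 0.74 (SE 0.46). The summed pericyte and smooth muscle signal did not overlap between the groups, at 32252.1 to 42095.3 in knockouts and 20318.6 to 28978.6 in controls. Most of it came from Acta2, smooth muscle actin (log2 difference 0.68, SE 0.14). The paired fit called Acta2 without pair 1 (0.83, limma adjusted p = 0.00516), but not with all pairs or with another left out. Among single probe sets, the groups did not overlap for 2.46% of those tested. Of 6 tested markers in this list 5 were above 0. Notch3 was at 0.28 (SE 0.17), Des at 0.03 (SE 0.23) and Rgs5 at -0.29 (SE 0.26). More or fewer cells of a type and more or less RNA per cell cannot be told apart in these bulk samples. Their part in the values above was not tested.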

How the data were processed

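Total RNA of 8 samples was measured on 1 Affymetrix array each. Per the submitters' processing notes the authors used GCOS 1.3 and MAS5, and the deposited values are linear array intensity per probe set. Computed from the deposited values, the 2% trimmed mean of each array was 1500; the sources used here name no further normalization. The number of arrays limits the precision.

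Signals were analysed as log2(signal + 73.1), 73.1 being the 20th percentile of all values, which understates changes of dim probe sets. After removal of the 64 array controls, the upper 60% by mean, 27022 probe sets, were tested with limma 3.58.1 in R 4.3.3 (lmFit, then eBayes with trend; two-sided; Benjamini-Hochberg over all of them; threshold 0.05). The fit was also run on simulated data with independent noise on each array. Those data lack the replicate structure seen here, so that run does not check the fit on these arrays. For the lists, a gene's value is that of its brightest tested probe set annotated to it alone; probe sets with several or no symbols name no gene. The 16 lists hold genes from general knowledge. In each list the rule for naming was any call, the 2 brightest genes and the 3 smallest unadjusted p. A selection of these is printed, with Sqle and Fdps added. The 10 members and the lists were chosen with earlier results of these data known.

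Single values were also compared by exact permutation of 4 against 4 arrays. Same-numbered arrays correlated at 0.189 to 0.373 in their deviations from the group means (others -0.347 to 0.149), so paired values are given; the pairing rests on the numbers in the labels and on this check. The unpaired fit is the main one. Alternatives covered pseudocount, filter, normalization, variance trend, array weights, the replicate block and the samples entered. Promoter and microRNA sequences are from RefSeq tables (GRCm38.p6), which held windows for 7 of the 10 members. Figures were drawn with matplotlib 3.10.9.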

Additional observations from a re-analysis of the deposited data

Results flagged for a closer look

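Of 40 groups of 4 arrays examined, 2 for each member probe set, 4 held an array far from the other 3, its gap to the nearest as a share of the group's log2 range being above Dixon's 95% critical value. Chance gives about 1 in 20 groups, and over all tested probe sets it was 5.41% of groups. Control 1 read 11494.2 for Cebpd 1423233_at against 6739.6 to 7385 in the other controls, a share of 0.82903 that only just passed. Control 1 also read 3630.1 for Ebf1 1448293_at against 2835.1 to 2890.3 (0.922). Control 3 read 4687.8 for Srebf1 against 3879.6 to 3973.6 (0.874). For the untested Klf5 1430255_at, control 3 read 135.1 against 13.2 to 18.5 (0.932).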

How the results depend on the processing

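No member probe set was called under any of the 23 alternatives, and 9 of the 18 kept the direction of their difference in all of them, Klf15, Pparg, Cebpa and Zfp423 among them. The replicate block (paired fit) raised the probe sets called over the array to 13, against 1 without it, and the list genes called to 2, against 0 without it; it changed no member's call. Counting every tested probe set of a list gene gave 1 call. No probe set was called over the array with no filter, with median centring or without a variance trend (0 each). Odd-numbered pairs alone gave 6 and even-numbered pairs alone 0. Leaving out an array or a pair gave 0 to 80, the 80 being the paired fit without pair 1, against 1, 0 and 2 without pairs 2, 3 and 4; list genes called were 0 to 5, the 5 again without pair 1.

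Differences near 0 changed sign. Odd-numbered pairs alone gave 0.057 for Ebf1 1448293_at, 0.072 for Ebf2 1418494_at, -0.12 for Ebf2 1449101_at, 0.0032 for Srebf1 and 0.019 for Mgst1. Even-numbered pairs alone gave -0.14 for Klf5 1451739_at, 0.055 for Ebf1 1439789_at and 0.073 for Slc2a4. Leaving out single arrays or pairs gave ranges of -0.24 to 0.028 for Cebpd 1456605_at, -0.061 to 0.48 for Klf5 1451739_at, -0.30 to 0.041 for Ebf2 1418494_at, -0.54 to 0.54 for Ebf2 1449101_at and -0.098 to 0.069 for Srebf1. For Ebf1 they were -0.076 to 0.19 (1416301_a_at), -0.11 to 0.017 (1416302_at), -0.11 to 0.063 (1448293_at) and -0.19 to 0.024 (1439789_at). Among other genes they were -0.19 to 0.054 for Mgst1, -0.28 to 0.45 for Lpl, -0.21 to 0.012 for Scd2, -0.29 to 0.13 for Ebf3, -0.21 to 0.10 for Insig1, -0.14 to 0.14 for Slc2a4 and -0.23 to 0.057 for Dicer1 1460571_at. The cause was not tested. Ebf2 1449101_at, Zfp423 and Klf15 had the lowest mean signals of the tested member probe sets, where the added value matters most.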
